A study of Mus musculus with 4 samples.

Results

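10 genes of blood vessel growth signalling were followed through all 4 single-cell matrices of the series, 10 of the 32285 genes listed in each: the ligands Vegfa, Vegfb, Vegfc, Pgf and Angpt1 and the receptors Kdr, Flt1, Nrp1, Nrp2 and Tek. They were chosen by name, and each had at least 1 UMI (a counted RNA molecule) in every matrix. A small endothelial-like class held most UMIs of the receptors Kdr, Flt1 and Tek in dorsal root ganglia (DRG) and their highest levels in both tissues, whereas the ligands came from several classes. In the DRG, Vegfa and Pgf were higher in the satellite glia-like cells of the 1NMPP1 library than in those of the vehicle library, and Vegfc was higher in its endothelial-like cells. Most of the Vegfc difference lay in 1 cluster with arterial markers, which had 21 cells in 1NMPP1 and 2 in vehicle.

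The VEGF ligands are secreted dimers that bind receptor tyrosine kinases on endothelial cells and drive their survival, division and migration. KDR, also called VEGFR2, carries most of the growth signal of VEGF-A, FLT1 (VEGFR1) binds VEGF-A, VEGF-B and PlGF and holds VEGF-A away from KDR, and neuropilins are coreceptors shared with the semaphorins that guide axons. Angiopoietin 1, made by cells around the vessel, activates TIE2, the product of Tek, and keeps vessels quiet and tight; in the growth plate, VEGF-A from hypertrophic cartilage draws vessels into the bone front, and in ganglia the vessels lie beside neurons wrapped by satellite glia.

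All mice, treated and control, carried a receptor kinase of sensory nerves that had been altered so that 1NMPP1 can block it, and all had an injured growth plate. The 1NMPP1 groups were injected into the abdomen 48 h and 2 h before surgery with 17 µg per g body weight, from a solution of 5 mM, and then had 40 µM of the compound in drinking water with 1% PBS-Tween; the vehicle groups had solution containing DMSO. Tissue was taken 7 days after injury as L1 to L5 ganglia of the operated side and as the distal femoral epiphysis, which holds the injured growth plate, and its surroundings, and the study compared 1NMPP1 with vehicle in each tissue. Each of the 4 groups is 1 library, and neither the number of mice behind it nor their age is stated in the labels.

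With 1 library per group, no difference has a replicate check and no p-value can be given. A level is the class's UMI sum of the gene relative to all UMIs of the class, in CPM, a ratio is the log2 of 1NMPP1 over vehicle, and the intervals in parentheses are 95% intervals that cover counting error only. Levels are not set side by side between genes. The growth plate libraries held 139703885 (1NMPP1) and 102693014 (vehicle) UMIs, and the DRG libraries 32791945 and 57303894. Of the barcodes, 10532 of 11807 and 8660 of 9560 were kept in the growth plate and 2151 of 2612 and 2843 of 3675 in the DRG, with between 4 and 40 barcodes shared by any pair of libraries. Male cells by their Y-linked genes were 24.9% (1NMPP1) and 49.7% (vehicle) of kept growth plate cells and 17.4% and 45.5% of kept DRG cells, so the libraries pool animals of both sexes in unlike proportions. Cells were clustered without the 10 genes, and a class is called by the markers that it carries. Among the classes compared, all 11 endothelial markers were highest in the endothelial-like class of each library, at a summed 7234.8 and 6958.4 CPM in the DRG (next class 326.2 and 275.2) and 7106.2 and 5658.2 CPM in the growth plate (next class 514.3 and 563.8). That next growth plate class is plasmacytoid dendritic-like and leaves out the few marrow stromal-like cells, which lie nearer. The endothelial marker score, a mean log2 level over the median cluster, was 4.94 in the marrow stromal-like cluster and 5.14 and 5.86 in the endothelial-like ones. The growth plate class is small, 15 cells in each library, and 5 of the 1NMPP1 and 2 of the vehicle cells also held marrow stromal markers. Those markers summed to 1715.8 and 2077.1 CPM in the class.

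Over both tissues, most levels of the 10 genes lay within 2-fold between 1NMPP1 and vehicle. The DRG had 15 classes with at least 10 cells in both libraries, and in them 66 pairs of a member and a class with at least 20 UMIs. Of the 66, 10 (15.2%) were at least 2-fold higher in 1NMPP1, against a background of 6.69% of all gene and class pairs, and 11 (16.7%) were at least 2-fold lower, against a background of 6.04%. In the growth plate, 3 of 80 pairs over 16 classes (3.75%) were at least 2-fold higher, against 2.88%, and 7 (8.75%) were at least 2-fold lower, against 3.85%. The median ratio was 0.08 over the DRG pairs and -0.13 over the growth plate pairs, beside 0.09 and -0.02 over all genes. The DRG counts were 3 higher and 2 lower of 29 when each pair had to reach 100 UMIs, so most of the pairs past 2-fold rest on few molecules. The share over all gene and class pairs was not computed at that minimum, so these counts have no background.

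**Figure D1:**
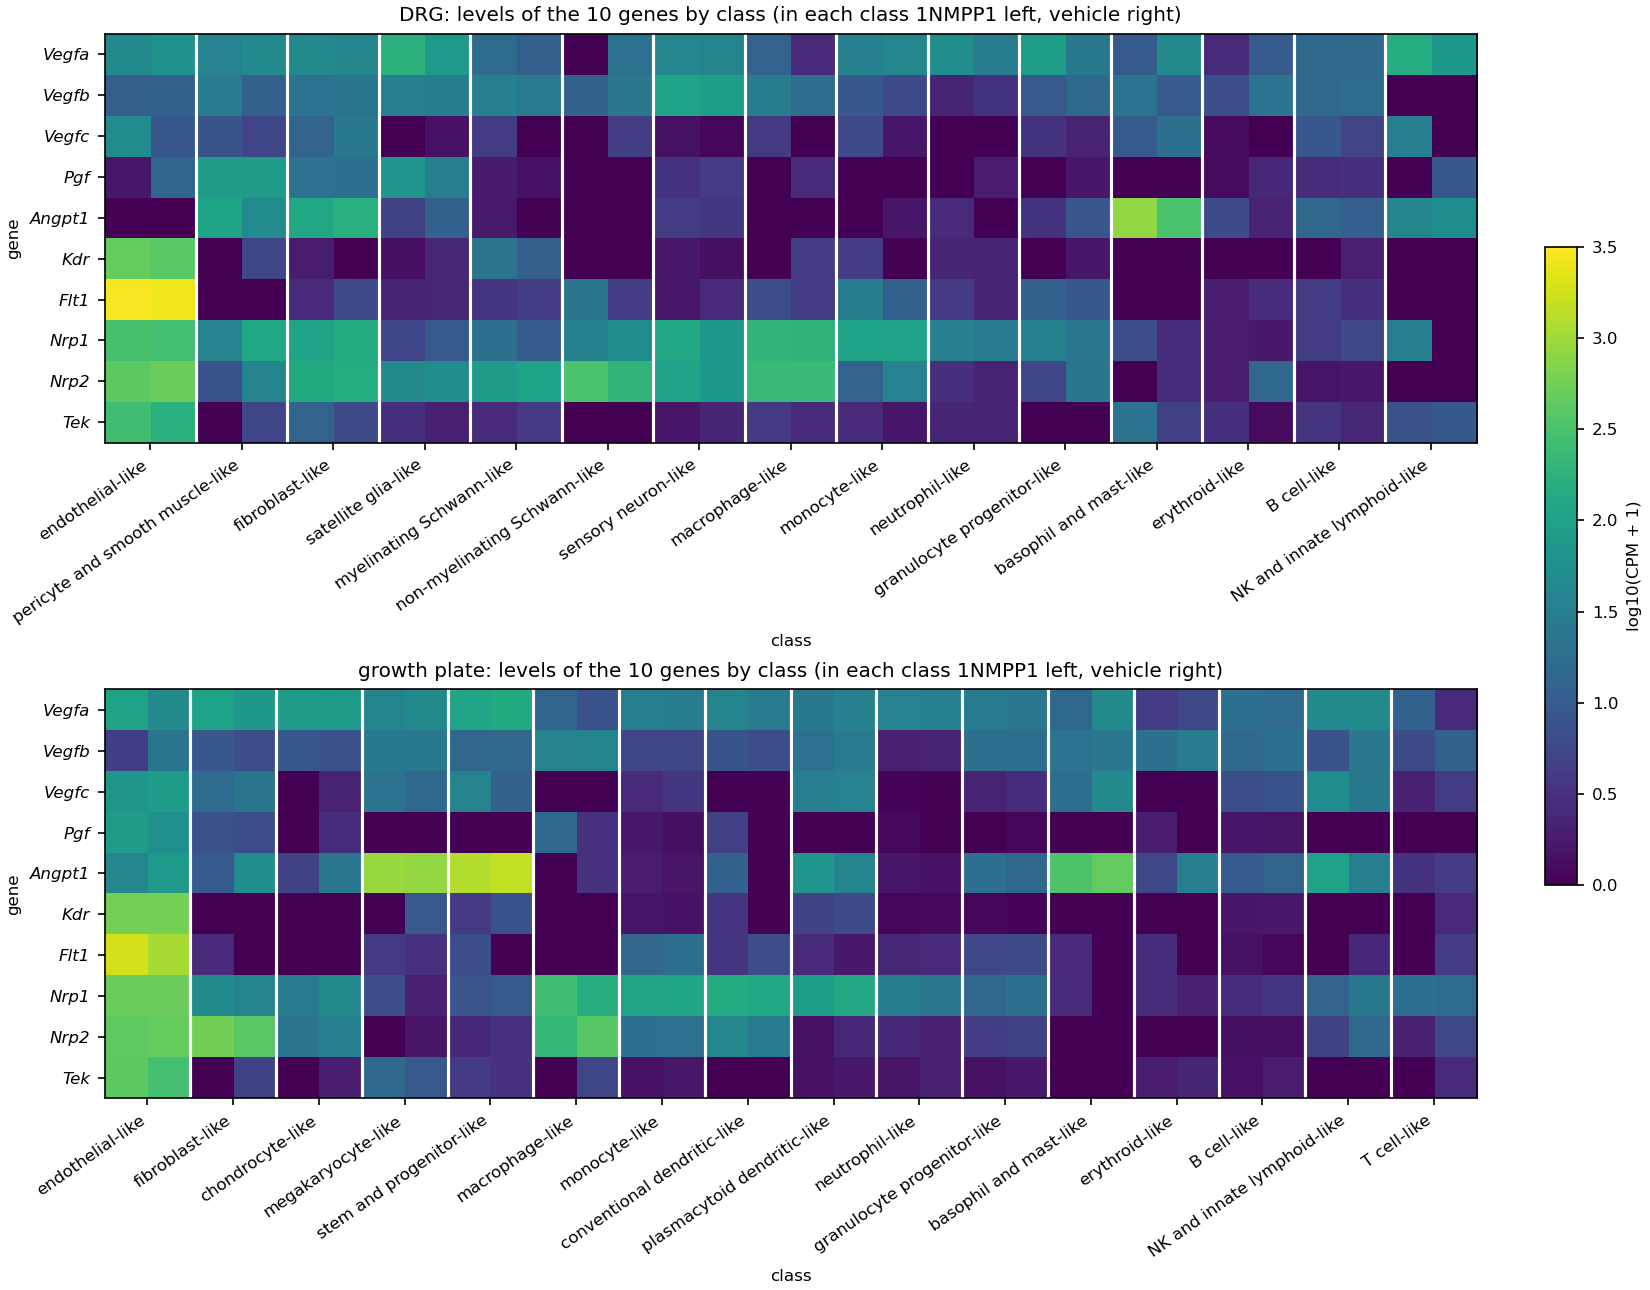
Level of the 10 genes in each class, as log10(CPM + 1) in colour, with classes of the DRG (top) and growth plate (bottom) along the axis, the 1NMPP1 library left and the vehicle library right in each class. Kdr, Flt1 and Tek are bright in the endothelial-like columns, while Angpt1 is bright in basophil and mast-like cells (826.2 and 323.9 CPM in the DRG) and in megakaryocyte-like and stem and progenitor-like cells of the growth plate.

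Vegfa (chr17:46016993-46032369, minus strand, here and below in GRCm38) encodes VEGF-A, the main growth factor of endothelial cells. In the DRG its largest source was satellite glia-like cells, the glia that sheathe neuron bodies, with 442 of 1287 UMIs (34.3%) in 1NMPP1 and 766 of 2461 (31.1%) in vehicle. Their level was 175.8 CPM in 1NMPP1 (185 cells) and 76.7 CPM in vehicle (597 cells), a log2 ratio of 1.20 (1.02 to 1.37). The interval lies clear of 0 and of the class median of 0.15 over 12671 genes. A Vegfa UMI was found in 113 of 185 cells (61.1%) in 1NMPP1 and in 319 of 597 (53.4%) in vehicle, at median depths of 12891 and 15408 UMIs. After thinning each cell to 1000 UMIs the shares were 12.6% and 6.41%, beside 1.03% and 1.34% in B cell-like cells. That class serves as a comparison here and below, not as a measure of stray RNA. Its single cells held up to 3 (1NMPP1) and 8 (vehicle) Vegfa UMIs. The ratio was 1.19 in the largest satellite glia-like cluster alone (205.9 and 90.1 CPM). In male-called cells it was 1.85 and in female-called cells 0.72, so it was above 0 in both, though of unlike size.

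Other cells of the DRG libraries held Vegfa at lower or less certain levels, except for a chondrocyte-like class. Whether the blood-forming and cartilage cells came from the ganglia or from adjoining tissue was not tested. Sensory neuron-like cells had 40.7 CPM in 1NMPP1 and 37 CPM in vehicle (376 and 554 UMIs, ratio 0.14, -0.06 to 0.33), which the counts do not separate. Neutrophil-like cells had 50.3 and 29 CPM (0.79, 0.43 to 1.17), and granulocyte progenitor-like cells 89.5 CPM in 17 cells and 24.6 CPM in 43 cells (1.86, 1.19 to 2.54). NK and innate lymphoid-like cells stood second in both libraries among classes read in both, at 146.3 and 73.5 CPM, on 23 and 9 UMIs, and 11 of the 23 came from 1 cell. In the endothelial-like cells themselves Vegfa was at 45.2 and 61.7 CPM (-0.44, -0.88 to -0.03). A chondrocyte-like class of 54 cells, present in the vehicle DRG library only, had the highest Vegfa of that library at 240.5 CPM and held 16.3% of its Vegfa UMIs; it was not compared.

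Growth plate Vegfa was spread over blood and skeletal cells. Neutrophil-like cells, the most frequent class, held 42.1% (1NMPP1) and 40.3% (vehicle) of its UMIs at 34.9 and 33.1 CPM (0.08, -0.04 to 0.19). Levels were higher in stem and progenitor-like cells (110.6 and 134.6 CPM, -0.28, -0.79 to 0.23) and in chondrocyte-like cells, the cartilage cells (85.1 and 78.8 CPM, 0.11, -0.20 to 0.42), and in neither did the interval exclude 0. The levels of these classes were thus close in both libraries, and over all kept cells Vegfa was at 30.6 and 29.8 CPM. Fibroblast-like cells had 105.2 and 72.3 CPM, with 56.1% and 51.4% of the UMIs from 1 cell. The 9 and 8 osteoclast-like cells, too few to compare, had 150.1 and 132.4 CPM. Among the classes compared, the highest was chondrocyte-like with no doublets removed and fibroblast-like at a finer clustering. Endothelial-like cells passed 2-fold, at 103.8 and 46.7 CPM (59 and 15 UMIs, 1.12, 0.32 to 2.08). However, a single 1NMPP1 cell gave 57.6% of its UMIs, and the ratio was 0.01 when no doublets were removed. Basophil and mast-like cells had 14.3 and 45.6 CPM (9 and 26 UMIs, -1.63, -2.95 to -0.54).

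Vegfb (chr19:6982473-6987651, minus strand) encodes VEGF-B, which binds FLT1 but not KDR. Its main source in the DRG was sensory neuron-like cells, with 68.1% of its UMIs in 1NMPP1 and 60.7% in vehicle at 104.8 and 91.8 CPM (0.19, 0.07 to 0.31). That is close to the class median ratio of 0.08. The next of the classes compared, myelinating Schwann-like (31.5 and 26.7 CPM) and satellite glia-like cells (31.4 and 29.6 CPM), had less than 40 CPM and overlapping intervals. The neuron class differs in depth, with median UMIs of 156002 in 69 cells of 1NMPP1 and 2599 in 166 cells of vehicle. Among the growth plate classes compared, Vegfb was highest in macrophage-like cells (35.4 and 37.2 CPM, 17 UMIs each). The 9 and 8 osteoclast-like cells, too few to compare, had 44.3 and 50.9 CPM, and B cell-like cells held the largest part of its UMIs, 33.8% and 30.1%. NK and innate lymphoid-like cells were past 2-fold there, at 6.95 and 23.6 CPM on 7 and 16 UMIs (-1.71, -3.29 to -0.40), as were erythroid-like cells of the DRG at 5.95 and 20.3 CPM (-1.74, -2.53 to -1.06).

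Vegfc (chr8:54077606-54187096, plus strand) encodes VEGF-C, the growth factor of lymphatic vessels, which also binds KDR and NRP2. Over all kept DRG cells it was at 4.34 CPM in 1NMPP1 and 1.94 CPM in vehicle (127 and 103 UMIs, 1.16, 0.78 to 1.55). Endothelial-like cells had 68 UMIs (47.3 CPM) in 1NMPP1 and 24 UMIs (8.05 CPM) in vehicle, a ratio of 2.54 (1.87 to 3.29). These UMIs came from 21 of 119 and 8 of 133 cells. One endothelial-like cluster that carried arterial markers held most of those of 1NMPP1, with 55 of the 68 UMIs in 13 of its 21 cells of 1NMPP1 and 6 of the 24 UMIs in its 2 cells of vehicle. Without that cluster the ratio was 0.86, on 13 and 18 UMIs, so most of the difference lay in that cluster. Within female-called cells it was 2.75 and within male-called cells 2.73. Fibroblast-like cells, the largest source in the vehicle library, had 12.1 and 24.9 CPM (14 and 36 UMIs, -1.02, -2.05 to -0.12).

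Growth plate Vegfc did not follow the DRG pattern. Endothelial-like cells had 70.4 CPM in 1NMPP1 and 84.1 CPM in vehicle (-0.26, an interval that includes 0), a ratio that was -1.41 without the cells that held both sets of markers and 1.45 with no doublets removed. Marrow stromal-like cells, the niche cells of marrow, had 180.2 CPM in 8 cells of 1NMPP1 and 513.1 CPM in 10 cells of vehicle, too few to compare, and 1 vehicle cell gave 70% of that class's UMIs. Stem and progenitor-like cells were past 2-fold at 35.9 and 10.9 CPM (24 and 5 UMIs, 1.62, 0.31 to 3.47), a ratio that was 0.57 with no doublets removed and 0.69 at a finer clustering. Basophil and mast-like cells had 17.4 and 45.6 CPM (11 and 26 UMIs, -1.35, -2.55 to -0.32). B cell-like and plasmacytoid dendritic-like cells, which held the most and the next most UMIs in both libraries, had ratios of -0.20 and -0.17.

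Pgf (chr12:85166635-85177790, minus strand) encodes placental growth factor, a ligand of FLT1. In the DRG its highest level was in pericyte and smooth muscle-like cells, the cells that wrap the vessel wall, at 84.1 CPM in 1NMPP1 and 83.7 CPM in vehicle (12 and 38 UMIs, 0.05, -1.06 to 0.97). The largest source was again satellite glia-like cells, with 72.6% and 62.3% of Pgf UMIs. They had 65.2 CPM in 1NMPP1 and 30.3 CPM in vehicle (164 and 303 UMIs), a ratio of 1.11 (0.82 to 1.38), and a Pgf UMI in 37.3% and 23.8% of cells, against 1.02% and 1.67% of B cell-like cells. Vegfa and Pgf were therefore both higher in the same glial class of the 1NMPP1 library. The Pgf ratio was larger in male-called (1.64) than in female-called cells (0.53), and it was 0.99 in the largest glial cluster. Endothelial-like cells had 1 UMI in 1NMPP1 and 38 in vehicle (0.696 and 12.7 CPM, -3.63, -9.54 to -1.63), but 36 of the 38 came from the 2 vehicle cells of the arterial-marked cluster. Pgf was scarce in the growth plate, with 126 and 47 UMIs in all, of which 49 in 3 endothelial-like cells and 18 in 2 (86.2 and 56.1 CPM, 0.60, -0.18 to 1.49). A single cell gave 89.8% and 94.4% of these, and the ratio was -1.63 when every cell weighed alike.

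Of the 6 members measured in satellite glia-like cells, 2 (Vegfa and Pgf) were at least 2-fold higher in 1NMPP1, against 7.73% of all genes, and 1 (Angpt1) at least 2-fold lower, against 5.3%; their median was -0.08 beside 0.15 over all genes. Vegfa and Pgf are both known to rise in cells short of oxygen, so genes of hypoxia control were read in the same cells. Of the 12, 11 were measured, with a median of 0.66 beside 0.15 over all genes. Of these, 1 was at least 2-fold higher, against 7.73% of all genes, and 1 at least 2-fold lower, against 5.3%. Egln3, an oxygen-sensing hydroxylase, was higher (9.15 and 4.51 CPM, 1.04, 0.23 to 1.78) and Adm, the vessel peptide adrenomedullin, lower (1.59 and 4.3 CPM, -1.28, -3.38 to 0.02), while the other 9 lay within 2-fold. Among those, Epas1, which encodes HIF-2 alpha, was at 590.2 and 318.0 CPM (0.89, 0.80 to 0.98) and Ndrg1 at 914.7 and 562.7 CPM (0.70, 0.63 to 0.77), while Bnip3 was at 15.1 and 23.1 CPM (-0.60). Markers of other cells in the class did not all move with Vegfa. The 13 chondrocyte markers summed to 228.7 and 248.9 CPM, with Sox9, Matn1, Matn3 and Col10a1 at 0 in 1NMPP1; the 11 pericyte and smooth muscle markers to 96.2 and 61 CPM, of which Cspg4 gave 79.9 and 41.2; and the 11 fibroblast markers to 643.8 and 469.7 CPM. The 13 sensory neuron markers summed to 122.5 and 248.8 CPM, the 10 myelinating Schwann markers to 1992.4 and 1779.7 CPM and the 11 endothelial markers to 13.1 and 24.1 CPM. The part of such other cells, or of a shortage of oxygen, in the Vegfa and Pgf levels was not tested.

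**Figure D2:**
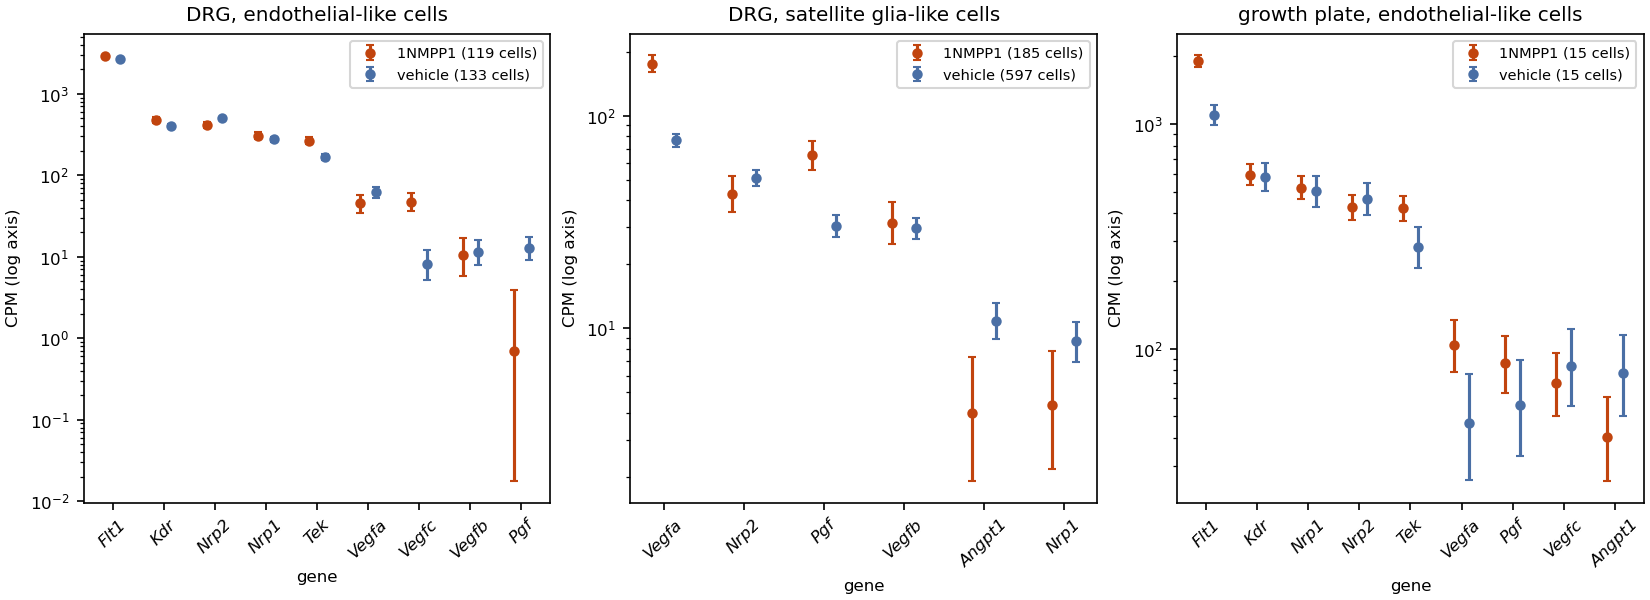
CPM on a log axis of the measured members in DRG endothelial-like, DRG satellite glia-like and growth plate endothelial-like cells, 1NMPP1 (left, red) and vehicle (right, blue), with 95% counting intervals. Vegfa and Pgf stand apart in the glia (175.8 and 76.7 CPM, 65.2 and 30.3 CPM), Vegfc and Pgf in DRG endothelial-like cells, and Flt1 in growth plate endothelial-like cells (1909.4 and 1099.3 CPM). The vehicle Pgf of DRG endothelial-like cells came mostly from the arterial-marked cluster. Other members also have intervals that do not overlap, such as Tek in DRG endothelial-like cells (265.2 and 167.4 CPM) and Angpt1, lower in 1NMPP1, in the glia (3.98 and 10.8 CPM).

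Angpt1 (chr15:42424723-42676977, minus strand) encodes angiopoietin 1, the ligand that activates TIE2. Its main growth plate sources were blood-forming cells. The highest level was in stem and progenitor-like cells, at 1255.7 CPM in 1NMPP1 and 1510.5 CPM in vehicle (-0.27, -0.41 to -0.12), and megakaryocyte-like cells followed at 897.0 and 852.0 CPM (0.07, -0.04 to 0.19). Stem and progenitor-like cells held 29% of its UMIs in 1NMPP1 and 20.9% in vehicle, and megakaryocyte-like cells 32% and 47.5%. The intervals of the 2 classes' levels do not overlap in either library. Every one of the 33 and 46 megakaryocyte-like cells had an Angpt1 UMI, against 4.65% and 4.36% of B cell-like cells. The megakaryocyte name is weaker in 1NMPP1, where 4 of the 9 markers were highest in the class (summed 1080.8 CPM), than in vehicle, where all 9 were (7883.9 CPM). In 1NMPP1 macrophage-like cells summed higher for these markers, at 1294.8 CPM. Of the 6 stem and progenitor markers, 5 (1NMPP1) and 4 (vehicle) were highest in the class of that name. They summed to 1874.6 and 2027.0 CPM there, beside 1690.0 and 1589.8 CPM in basophil and mast-like cells. Over all kept growth plate cells Angpt1 was at 24.5 and 37 CPM (-0.59, -0.66 to -0.52), a level that also moves with how many Angpt1-rich cells a library holds.

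The same ligand was found in the DRG libraries in basophil and mast-like cells, with 826.2 CPM in 17 cells of 1NMPP1 and 323.9 CPM in 16 cells of vehicle (1.35, 1.08 to 1.63). It was detected in 15 of the 17 and 12 of the 16 cells. In growth plate basophil and mast-like cells the levels were 332.6 and 461.0 CPM (-0.47, -0.74 to -0.20). DRG fibroblast-like cells had 122.3 and 163.4 CPM (-0.42, -0.73 to -0.11), and pericyte and smooth muscle-like cells 105.1 and 48.5 CPM on 15 and 22 UMIs (1.13, 0.07 to 2.13). Of those 15 UMIs 1 cell gave 46.7%, and 25% (1NMPP1) and 35.6% (vehicle) of the pericyte and smooth muscle-like cells had a UMI. Satellite glia-like cells had little, 3.98 and 10.8 CPM (-1.38, -2.54 to -0.51). No Angpt1 UMI was counted in the DRG endothelial-like cells of either library, which have its receptor; 3 UMIs, taken as the most that a count of 0 allows, would be 2.09 and 1.01 CPM there. In the growth plate, 3 stromal and red cell classes were more than 2-fold lower, chondrocyte-like cells at 3.73 and 22.9 CPM (-2.51, -4.11 to -1.43), fibroblast-like cells at 9.56 and 50.8 CPM (-2.32, -3.98 to -1.10) and erythroid-like cells at 4.78 and 30 CPM (-2.59, -3.70 to -1.74), while NK and innate lymphoid-like cells were higher at 100.3 and 31 CPM (1.67, 1.00 to 2.45, and 0.84 with no doublets removed). The chondrocyte value is fragile: it turned to 1.78 with no doublets removed, and 1 vehicle cell gave 40.5% of that library's UMIs. In the fibroblast-like value 1 vehicle cell gave 57.7% of the 26 UMIs, and in the erythroid-like value 1 vehicle cell gave 51.1% of the 90 UMIs.

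**Figure D3:**
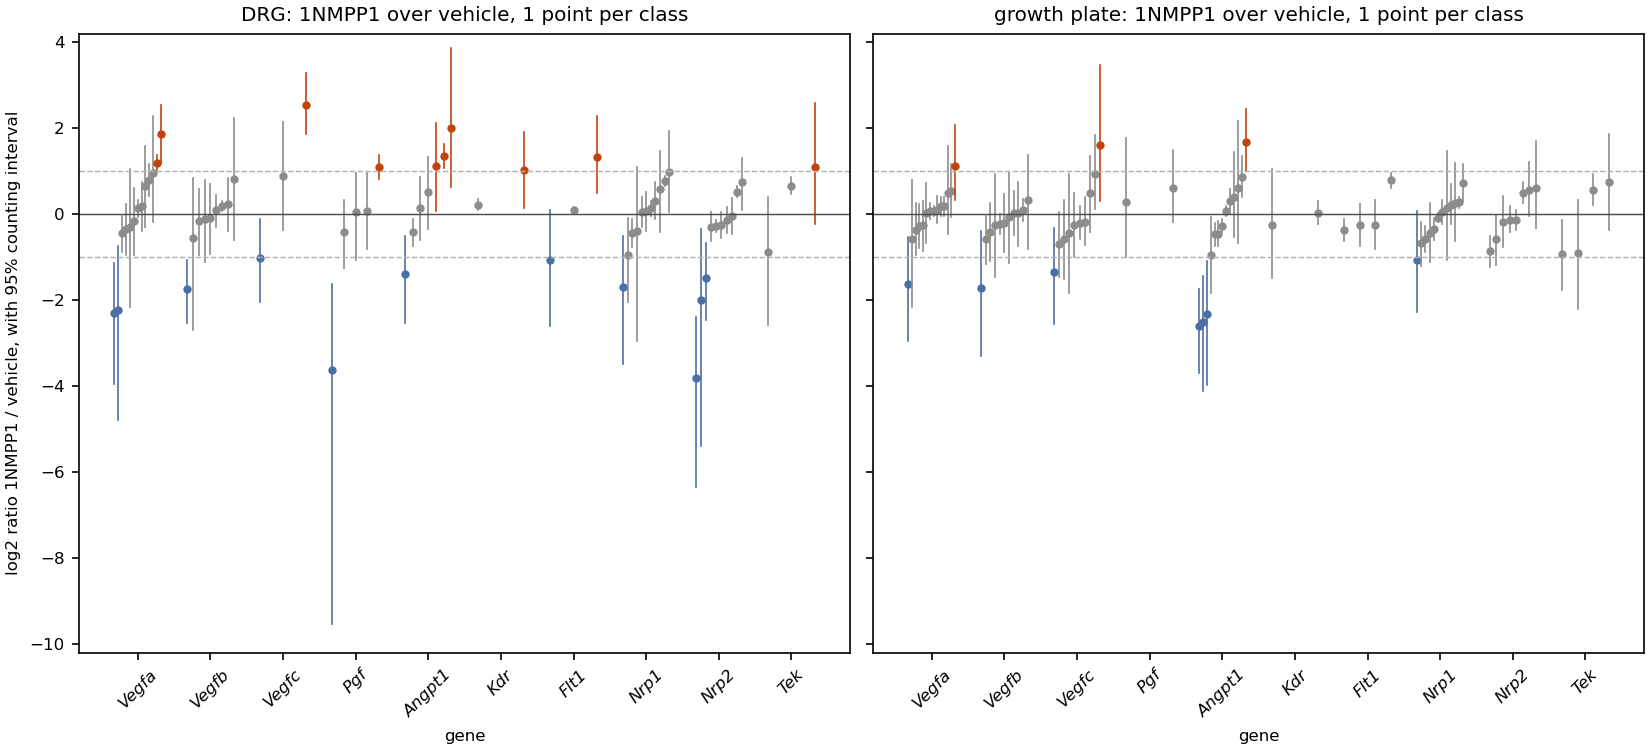
Log2 ratio of 1NMPP1 over vehicle of each gene, 1 point per class with at least 20 UMIs and 95% counting intervals, in the DRG (left) and growth plate (right); red points are at least 2-fold higher and blue points at least 2-fold lower, and dashed lines mark 2-fold. DRG points run from -3.63 (Pgf) to 2.54 (Vegfc) for ligands and from -3.81 (Nrp2) to 1.34 (Flt1) for receptors, and in endothelial-like cells of both tissues Kdr, Flt1 and Tek lie between 0.03 and 0.80.

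Kdr (chr5:75932827-75978458, minus strand), Flt1 (chr5:147561604-147726011, minus strand) and Tek (chr4:94739289-94874976, plus strand) encode the receptor kinases VEGFR2, VEGFR1 and TIE2, and their RNA marked the same cells. DRG endothelial-like cells were 5.53% of kept cells in 1NMPP1 and 4.68% in vehicle, and they held 94.1% and 95.1% of Kdr, 98.1% and 98.5% of Flt1 and 86.4% and 87.5% of Tek UMIs. Flt1 was found in 99.2% of these cells in each library, against 1.7% and 2% of B cell-like cells. All 3 receptors were detected together in 84 of 119 cells (70.6%, 61.5% to 78.6%) of 1NMPP1 and 103 of 133 (77.4%, 69.4% to 84.2%) of vehicle, and no cell lacked all 3, with exact upper limits of 3.05% and 2.74%. Median depths were 8961 and 18773 UMIs, so the shares of joint detection are not at equal depth.

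The starts of these 3 genes are shown because they share an expression pattern, and ETS factors, which read the letters GGAA, are known regulators of endothelial genes. The windows run from 250 bases before to 50 after the RefSeq start (GRCm38.p6), on the gene's strand, with GGAA and its reverse complement TTCC in capitals: Kdr is chr5:75978406-75978705 (minus), Flt1 chr5:147725962-147726261 (minus) and Tek chr4:94739039-94739338 (plus).
Kdr: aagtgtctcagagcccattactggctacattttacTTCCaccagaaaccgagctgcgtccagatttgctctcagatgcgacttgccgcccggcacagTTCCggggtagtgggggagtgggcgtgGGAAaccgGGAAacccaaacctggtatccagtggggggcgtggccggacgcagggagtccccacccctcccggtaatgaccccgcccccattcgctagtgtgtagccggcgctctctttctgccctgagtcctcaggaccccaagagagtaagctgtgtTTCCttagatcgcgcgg
Flt1: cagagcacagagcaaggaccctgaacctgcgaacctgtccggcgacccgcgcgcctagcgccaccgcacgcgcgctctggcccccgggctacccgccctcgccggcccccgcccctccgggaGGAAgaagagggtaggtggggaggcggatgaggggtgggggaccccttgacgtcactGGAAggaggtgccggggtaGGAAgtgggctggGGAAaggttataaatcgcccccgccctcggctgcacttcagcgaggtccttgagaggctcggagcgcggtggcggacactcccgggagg
Tek: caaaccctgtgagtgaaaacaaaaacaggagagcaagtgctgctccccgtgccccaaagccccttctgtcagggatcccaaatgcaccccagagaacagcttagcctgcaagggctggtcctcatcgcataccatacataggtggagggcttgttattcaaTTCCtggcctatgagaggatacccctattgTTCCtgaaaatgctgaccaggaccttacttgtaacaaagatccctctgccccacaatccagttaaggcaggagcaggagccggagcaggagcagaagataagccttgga
Kdr holds 5 such matches over both strands, Flt1 4 and Tek 2. Of 32851 promoters of the same length 96% hold at least 1 match, 28.6% hold at least 5, 46.3% at least 4 and 84.6% at least 2, so none of the 3 counts is rare. The letters ACGTG or GCGTG were also counted, with 2 matches in Kdr, 1 in Flt1 and 0 in Tek. At least 1 match of these is held by 43.8% of promoters and at least 2 by 20.6%. The G and C share is 60.7%, 70.7% and 52%, beside a median of 52.7%.

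Between the libraries, DRG endothelial-like Flt1 was at 2899.7 CPM in 1NMPP1 and 2682.3 CPM in vehicle (0.11, 0.06 to 0.17) and Kdr at 476.1 and 407.5 CPM (0.22, 0.09 to 0.36). The median over 10303 genes of these cells was 0.23, so neither stood above the class as a whole, and with ratios centred on a median of the class Flt1 came to -0.11. Tek was at 265.2 and 167.4 CPM (381 and 499 UMIs, 0.66, 0.47 to 0.86). It was 0.44 after that centring, 0.79 within male-called, 0.78 within female-called cells and 0.47 without the arterial-marked cluster. At 1000 UMIs per cell, Tek was detected in 32.5% (24.1% to 41.8%) and 18.9% (12.6% to 26.7%) of cells, and Kdr in 28.2% (20.3% to 37.3%) and 40.2% (31.7% to 49%). Of the 9 members measured in the class, 1 (Vegfc) was at least 2-fold higher, against 9.61% of all genes, and 1 (Pgf) at least 2-fold lower, against 4.32%, with a median of 0.11.

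In growth plate endothelial-like cells the same receptors were found, on 15 cells in each library, which held 69.3% and 75.4% of Kdr, 60.6% and 48.6% of Flt1 and 63.1% and 45.5% of Tek UMIs. Flt1 was at 1909.4 CPM in 1NMPP1 and 1099.3 CPM in vehicle (1085 and 353 UMIs, 0.80, 0.62 to 0.97), and Tek at 420.6 and 283.4 CPM (0.56, 0.22 to 0.93), while Kdr was at 594.8 and 582.3 CPM (0.03, -0.23 to 0.30). Without the 5 and 2 cells that also held stromal markers, the ratios were 1.08 for Flt1, 0.84 for Tek and 0.43 for Kdr. All 3 receptors were seen in 13 of 15 cells of each library, and 1 cell of 1NMPP1 and 2 of vehicle lacked all 3. One member of 9 (Vegfa) was at least 2-fold higher, against 6.7% of all genes, and none of the 9 at least 2-fold lower, against 8.22%, with a median of 0.05 beside -0.03. Marrow stromal-like cells were next, but in 1NMPP1 their 277 Flt1 UMIs came from 2 of 8 cells, the same number as held both sets of markers. The class could not be named when cells needed at least 500 genes or at most 10% mitochondrial UMIs, and then it gave no value.

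Outside endothelium these receptors were at low levels. DRG monocyte-like cells had Flt1 at 28.3 CPM in 1NMPP1 and 11 CPM in vehicle (35 and 17 UMIs, 1.34, 0.49 to 2.29), in 12.1% and 12.7% of cells at median depths of 9758 and 16802 UMIs. Cells called male gave a ratio of 0.44 and cells called female 2.12, and 1 cell gave 11 of the 35 UMIs. Monocyte-like cells of the growth plate had 13.5 and 17.4 CPM (264 and 222 UMIs, -0.37, -0.63 to -0.10), in 13.4% and 12.9% of cells, against 0.398% and 0.106% of B cell-like cells. Flt1 is known in human and mouse monocytes, where VEGF ligands act as attractants. At 1000 UMIs per cell the DRG shares were 5.05% (1.66% to 11.4%) and 1.28% (0.0325% to 6.94%), on 5 of 99 and 1 of 78 cells, with intervals that overlap. Kdr was seen in DRG myelinating Schwann-like cells at 21 and 10.3 CPM (26 and 22 UMIs, 1.02, 0.15 to 1.91), and this ratio was 0.33 when every cell weighed alike and 1.86 within male-called cells. Tek was at 14.5 and 8.62 CPM in growth plate megakaryocyte-like cells (0.75, -0.37 to 1.86) and at 12.1 and 5.54 CPM in DRG fibroblast-like cells (14 and 8 UMIs, 1.09, -0.23 to 2.58), with intervals that include 0.

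Nrp1 (chr8:128358604-128503363, plus strand) and Nrp2 (chr1:62703285-62818695, plus strand) encode the neuropilins, which bind VEGF and class 3 semaphorins, and they were spread far wider than the kinases. Among the classes compared, Nrp1 was highest in endothelial-like cells, at 306.3 CPM in 1NMPP1 and 277.4 CPM in vehicle in the DRG (0.14, -0.03 to 0.31) and at 520.9 and 501.4 CPM in the growth plate (0.05, -0.23 to 0.34, and 0.65 without the cells that held both sets of markers). The 8 and 10 marrow stromal-like cells, too few to compare, had 414.1 and 602.9 CPM. Macrophage-like cells came next, at 195.4 and 186.2 CPM in the DRG (0.07, -0.39 to 0.52) and at 258.1 and 155.4 CPM in the growth plate (0.73, 0.30 to 1.17). By UMIs the main holders were other cells. Monocyte-like cells held 44.3% and 43.6% of growth plate Nrp1, at 110.5 and 116.5 CPM (-0.08, -0.17 to 0.02), with a UMI in 69.7% and 66.7% of cells against 1.33% and 1.38% of B cell-like cells. Sensory neuron-like cells held 51.8% and 34.1% of DRG Nrp1, at 123.2 and 72 CPM (0.78, 0.65 to 0.90). In neurons NRP1 is a semaphorin receptor of the axon. That neuronal ratio was smaller, 0.41 to 0.49, under 4 other settings of cell filter, doublet removal and clustering, and the class differed in depth as given above.

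Nrp2 was high in DRG endothelial-like cells (413.5 and 497.8 CPM, -0.27, -0.41 to -0.13), non-myelinating Schwann-like cells (321.4 and 194.3 CPM, 0.74, 0.09 to 1.32) and macrophage-like cells (230.4 and 235.6 CPM, -0.03, -0.45 to 0.37). Sensory neuron-like cells had 102.3 and 71.5 CPM (0.52, 0.39 to 0.65). In the growth plate, fibroblast-like cells had 570.5 and 402.6 CPM (0.50, 0.25 to 0.76), endothelial-like cells 425.9 and 464.0 CPM (-0.13, -0.42 to 0.18) and macrophage-like cells 216.5 and 391.7 CPM (-0.85, -1.22 to -0.50). Its highest growth plate level was in osteoclast-like cells, the bone-resorbing cells, at 1210.9 CPM in 9 cells of 1NMPP1 and 923.5 CPM in 8 cells of vehicle, each of them with Nrp2 UMIs. These few cells held 26.2% and 20.8% of all growth plate Nrp2 UMIs; the class was under 10 cells and was not compared. DRG monocyte-like cells were past 2-fold at 12.1 and 34.9 CPM (15 and 54 UMIs, -1.49, -2.46 to -0.68, and -0.53 at no more than 10% mitochondrial UMIs), as were erythroid-like cells at 0.85 and 13.8 CPM (3 and 55 UMIs) and, for Nrp1, pericyte and smooth muscle-like cells at 35 and 123.3 CPM (5 and 56 UMIs, -1.69, -3.49 to -0.51). Of the 8 members measured in sensory neuron-like cells, none was at least 2-fold higher, against 4.2% of all genes, and 1 (Flt1, on 7 and 25 UMIs) at least 2-fold lower, against 4.48%, with a median of 0.15 beside 0.08.

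The endothelial-like cells of the DRG fell into 5 clusters whose sizes differed between libraries: 29 and 69 cells in cluster 0, 62 and 27 in cluster 1, 7 and 28 in cluster 2, 21 and 2 in cluster 3, and 0 and 7 in cluster 4. Cluster 2 carried venous markers, 7 of 7 at least 2-fold above the other clusters, and cluster 3 carried arterial ones, 4 of 8, with a mean log2 difference of 1.46. The genes that set the clusters can themselves differ with treatment, so the sizes are given as a description. Receptor and ligand levels followed the clusters. Nrp2 was highest in the venous-marked cluster (1125.6 and 607.6 CPM) and low in the arterial-marked one (275.6 and 14.3 CPM). Tek was highest in the arterial-marked cluster of 1NMPP1 (413.4 CPM, against 171.6 in the 2 vehicle cells), and Vegfc was at 204.8 and 85.8 CPM there. In cluster 1, the one with over 20 cells in both libraries besides cluster 0, Tek was at 258.8 and 198.2 CPM and Kdr at 528.6 and 363.1 CPM, while in cluster 0 Tek was at 139.2 and 151.2 CPM with overlapping intervals.

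**Figure D4:**
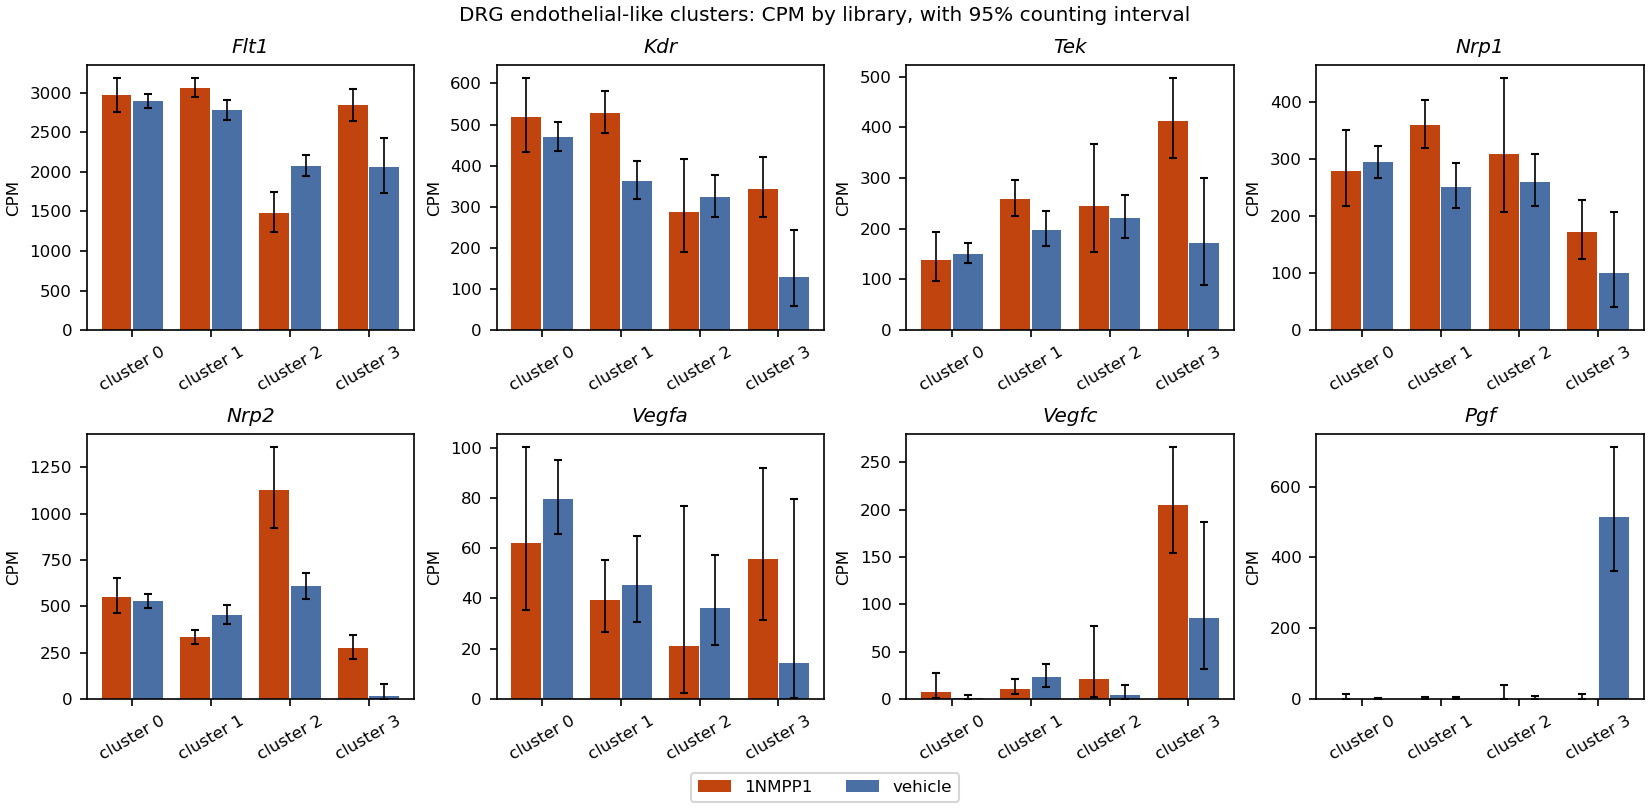
CPM of 8 genes in the 4 DRG endothelial-like clusters that both libraries share, 1NMPP1 left (red) and vehicle right (blue), with 95% counting intervals; cluster 2 carries venous and cluster 3 arterial markers. Vegfc is highest in cluster 3 (204.8 and 85.8 CPM), where vehicle has 2 cells, and Nrp2 in cluster 2 (1125.6 and 607.6 CPM).

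Other genes of the pathway were read in DRG endothelial-like cells from 5 lists, most of whose genes reached 20 UMIs. Over all genes of these cells 9.61% were at least 2-fold higher and 4.32% at least 2-fold lower, with a median ratio of 0.23, and a list count is read beside these shares. Of the other VEGF and Tie ligands, receptors and regulators, 5 of 7 were measured and all lay within 2-fold, with a median of 0.72; Tie1, the partner of TIE2, was at 318.8 and 193.9 CPM (0.72, 0.54 to 0.90), and Ptprb, the phosphatase that restrains TIE2, at 545.0 and 324.7 CPM (0.75, 0.61 to 0.88). Of the semaphorins and plexins that work with neuropilins, 9 of 13 were measured, 2 were at least 2-fold higher and 0 lower, with a median of 0.49. These were Sema3c (100.2 and 34.9 CPM, 1.52, 1.15 to 1.90) and Sema3g (149.0 and 51.7 CPM, 1.53, 1.22 to 1.84), both semaphorins secreted by vessel cells, and Sema3g is itself one of the arterial markers. Of the VEGF receptor signalling genes, 9 of 11 were measured and 1 was higher, Plcg1, the phospholipase that KDR activates (51.5 and 22.5 CPM, 1.20, 0.70 to 1.70), while Nos3, the endothelial nitric oxide synthase, was at 152.4 and 88.9 CPM (0.78) and Cav1 of caveolae at 455.9 and 692.0 CPM (-0.60).

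Genes that VEGF is known to induce in endothelium did not pass 2-fold in either direction, 9 of 9 measured, and their median of 0.21 was close to the 0.23 over all genes. Among them Nr4a1, an early response gene, was at 546.4 and 386.4 CPM (0.50), Dll4, the Notch ligand of tip cells, at 411.4 and 356.2 CPM (0.21), and Rcan1, an inhibitor of calcineurin, at 116.9 and 178.8 CPM (-0.61). Of the hypoxia control genes all 12 were measured, with a median of -0.11. One was higher, Arnt, the partner of the hypoxia-inducible factors (103.0 and 51.3 CPM, 1.01, 0.67 to 1.34), while Epas1 was at 1276.6 and 727.5 CPM (0.81) and Adm at 22.3 and 44.3 CPM (-0.97). Arterial markers summed to 1087.9 CPM in 1NMPP1 and 727.5 CPM in vehicle over the class and venous markers to 1103.9 and 616.8 CPM, and their part in these lists was not tested.

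Across 51 class and library points with at least 30 cells, the receptors resembled each other and vessel genes. Pearson's r of log2(CPM + 5) was 0.89 for Kdr with Flt1 and with Tek and 0.87 for Flt1 with Tek, 0.70 for Nrp1 with Nrp2, and 0.70 for Angpt1 with Vegfc. These are descriptions over points that share libraries, depth and clustering. Of 14650 genes, those most like Kdr were Ptprb (0.96), Sox18 (0.96), a transcription factor of endothelium, and AU021092 (0.95), those most like Flt1 AU021092, Slco1a4 and Sox7 (each 0.94), and those most like Tek Tie1, Akr1c14 and Cyyr1 (each 0.93). Among ligands, Pgf was most like Vstm4 (0.86), Heyl (0.85) and Hoxb2 (0.80), Angpt1 most like Slc22a3 (0.83), Meis1 (0.80), a stem cell factor, and Nanos3 (0.77), and Vegfb most like Tmx2 and Arl2 (0.81 each) and Qdpr (0.79). Vegfc was most like Morn3 and Nanos3 (0.71 each) and Heg1 (0.70), and Vegfa most like Tiam2 (0.70), Srpr (0.69) and Kazald1 (0.63). For the neuropilins they were Dock4 and Il13ra1 (0.83 each) and Pltp (0.82) with Nrp1, and Cttnbp2nl (0.89), Jup and Fcgrt (0.87 each) with Nrp2.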

How the data were processed

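Single cells were captured with the 10x Genomics system, per the labels. The authors deposited filtered matrices of raw UMI counts from Cell Ranger 7.2.0, per the file headers, on mm10, per the submitters' processing notes; whether intronic reads were counted is not stated there. Barcodes with under 200 genes or over 20% mitochondrial UMIs were removed, then the barcodes with the highest doublet scores, at 0.8% per 1000 barcodes, since the caller's own threshold marked almost none. Clustering (scanpy 1.11.5, leidenalg 0.10.2, Python 3.11.15) used 2000 variable genes, 30 components and resolution 1, without the 10 genes, the list genes, sex-linked and mitochondrial genes. Clusters of at least 40 cells with a close second class were clustered again at resolution 0.5. Each cluster took the class with its highest marker score, if that passed a set minimum, and was called "X-like". It also needed at least 3 detected markers, with no other class having more markers among its top 10 genes. Shallow clusters with none of their markers among those genes stayed unnamed. The naming rule was settled after the clusters were seen. Ratios add 0.5 UMI to each count and need 10 cells per library and 20 UMIs; 2-fold is a description, not a test. Intervals are exact Poisson, binomial or conditional binomial (scipy 1.17.1). The ratio step was tested on simulated data. Genes named are the 10 members, the 3 genes most like each, list genes past 2-fold, and some further list genes picked as examples after their values were seen. The members and lists were chosen with earlier results of these data known. The altered receptor gene is not reported here.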

Additional observations from a re-analysis of the deposited data

Results flagged for a closer look

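Of 36 pairs of a gene and a class that could be read in both tissues, 4 had 1NMPP1 over vehicle ratios of opposite sign, each with a counting interval clear of 0. With 1 library per group, the difference between tissues was not tested in any of them. Angpt1 in basophil and mast-like cells had a log2 ratio of 1.35 in the DRG and -0.47 in the growth plate. Angpt1 in erythroid-like cells had 2.01 in the DRG, on 19 and 5 UMIs of which 1 cell gave 89.5% of the 19, and -2.59 in the growth plate, on 11 and 90 UMIs of which 1 cell gave 51.1% of the 90. Flt1 in monocyte-like cells had 1.34 in the DRG and -0.37 in the growth plate. Vegfa in endothelial-like cells had -0.44 in the DRG and 1.12 in the growth plate, where 1 cell of 1NMPP1 gave 57.6% of its UMIs.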

How the results depend on the processing

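Of 690 recomputed single ratios, 571 lay within the counting interval of the value reported and 116 lay outside it. A further 3 changed sign from a reported value of at least 2-fold. Angpt1 in growth plate chondrocyte-like cells was 1.78 with no doublets removed. With every cell weighing alike, Flt1 in DRG sensory neuron-like cells was 1.02 and Pgf over all kept growth plate cells -0.07. Sign changes of ratios reported within 2-fold were not counted apart and lie among the 571 and 116. In the DRG, the 10 pairs higher in 1NMPP1 became 3 after thinning to 1000 UMIs, 5 in female-called cells, 3 from 100 UMIs and 32 with no minimum; the 11 lower pairs became 7 at 10% mitochondrial UMIs, 0 after thinning, 6 in male-called cells, 4 in female-called cells, 2 from 100 UMIs and 23 with no minimum. In the growth plate, the 3 higher pairs became 6 with every cell weighing alike, 1 from 100 UMIs and 17 with no minimum, and the 7 lower pairs became 0 after thinning, 11 with every cell weighing alike, 4 in male-called cells, 3 in female-called cells, 1 from 100 UMIs and 26 with no minimum. Thinning left 19 DRG and 16 growth plate pairs to read, and the sex-called cells between 35 and 42. The share over all genes was not computed under these settings, so the counts cannot be read against a background. The class with the highest level stayed that of the chosen setting for 4 of the 10 genes in the growth plate with at least 500 genes per cell and for 3 at 10% mitochondrial UMIs, where no endothelial-like class could be named. The alternatives without mixed cells, without the arterial-marked cluster and within the largest glial cluster were chosen after seeing the data. Depth limits every value under about 20 UMIs. No paired analysis was possible because each group has 1 library.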
